A study of Homo sapiens with 15 samples.

Results

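AP-1 is a transcription factor made of pairs of basic leucine zipper proteins, in which a JUN protein joins either another JUN protein or a FOS protein, and it links growth factor and stress signals to gene expression. ATF3, MAFF and MAFK belong to neighbouring branches of the same zipper superfamily: ATF3 pairs with JUN proteins and represses many of its targets, and the small MAF proteins MAFF and MAFK, which lack an activation domain of their own, pair with NRF2 and its relatives at antioxidant response elements. The 10 genes FOS, FOSB, FOSL1, FOSL2, JUN, JUNB, JUND, ATF3, MAFF and MAFK were chosen by symbol and were all found, 10 of the 60664 genes in the table of TPM (an abundance of transcripts that is relative to the whole library and set against the length of the transcript). In colorectal tumour cells AP-1 is best known as an output of the RAS and MAP kinase pathway.

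RNA was sequenced from HCT116, a human colorectal carcinoma cell line, after 72 h with an extract of oil production waste products (OPWPs, the residues of olive oil making) made in the Italian regions of Apulia (AE), Tuscany (TE) and Sicily (SE, which never stands for an error here), with pure synthetic hydroxytyrosol (HTyr, a phenol of the olive), or without treatment. Each of the 4 treatments was given at 0.0154 mg/mL, and each of the 5 groups had 3 libraries, 15 in all. The comparisons ask how far the extracts and HTyr changed the level of each gene relative to untreated cells, and where the extracts differed from HTyr and from each other. The labels call the libraries biological replicates, and the methods describe the data of the study in general as coming from independent experiments. Whether the 3 libraries of a group came from separate cultures is not said, and each p-value rests on the spread among them.

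The study gives the depth of sequencing only as an average over its samples, and the depth of each library cannot be read from TPM, so no counting error is given. Genes with at least 1 TPM numbered 13653 to 14034 in the 12 treated libraries and 13782 to 13904 in the 3 untreated ones. The 7 epithelial markers listed for the check of the cell line, EPCAM and keratins among them, each had at least 1 TPM in all 15 libraries, with EPCAM at 269.8 to 346 TPM over all of them. Together the 7, of which KRT8, KRT18 and KRT19 were the most abundant, summed to 2512 to 3446 TPM in treated cells and 4525 to 4552 TPM in untreated cells. Of 15 markers of other cell types, 5 had a median of at least 1 TPM. These were TUBB3 at 31.8 to 87.5 TPM, CD68 at 1.58 to 17.3 TPM, and COL1A1, ACTA2 and DES. COL1A1 lay at 4.06 to 8.53 TPM, ACTA2 at 3.76 to 8.7 TPM and DES at 1.42 to 3.83 TPM. The rest were below 1 TPM in every library, with the blood cell marker PTPRC and the endothelial marker PECAM1 at or near 0. The 15 summed to 65.8 to 104.9 TPM in treated cells and 63.7 to 66.4 TPM in untreated cells. Ribosomal protein genes held 19.9% to 25.7% of all TPM in treated cells and 26.9% to 29.3% in untreated cells, and mitochondrially encoded genes 17.0% to 21.5% and 15.6% to 18.7%. Treated and untreated libraries did not overlap in the epithelial marker sum, which rests mainly on the keratins, or in the ribosomal protein share. The part of these measures in the results was not tested. In bulk RNA, fewer cells of a kind and less RNA per cell cannot be told apart.

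AP-1 pairs recognise the TPA response element, a short palindrome searched here as TGANTCA, and pairs that include an ATF protein favour the cAMP response element TGACGTCA. The JUN gene is known for a variant of that element, TGACATCA, in its own promoter, through which JUN and ATF2 act on it. The 250 bases before each listed transcription start were read on both strands from RefSeq on GRCh38.p14. The 8 members that have an entry gave 10 windows (ATF3 and MAFF have 2 entries each, and FOSL1 and MAFK have none). Other starts of these genes were not read. TGACATCA was found in JUN and in the upstream ATF3 window, and TGACGTCA in JUND and in the upstream MAFF window. No window held TGANTCA. Of 35116 promoter windows of the same length in the table, 2.37% held TGACATCA, 1.65% held TGACGTCA, 4.0% held either and 6.57% held TGANTCA. The matches do not overlap each other, and each is a string of letters, not a measured site. The 4 windows with a match and that of FOS, which has none, are shown 5′ to 3′ on the strand of the gene. They belong to 3 of the 4 genes lower with every treatment, 1 lower with SE alone and the 1 member called with no treatment. FOSB, also lower with every treatment, has no match and its window is not shown. A link between a match and the response was not tested. Capitals mark the element.
JUN, chr1:58784048-58784297, minus strand: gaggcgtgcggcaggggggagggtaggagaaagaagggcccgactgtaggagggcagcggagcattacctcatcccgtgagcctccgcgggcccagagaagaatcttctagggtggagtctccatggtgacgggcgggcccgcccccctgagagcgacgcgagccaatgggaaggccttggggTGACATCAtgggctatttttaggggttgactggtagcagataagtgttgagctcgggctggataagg
ATF3, chr1:212565157-212565406, plus strand: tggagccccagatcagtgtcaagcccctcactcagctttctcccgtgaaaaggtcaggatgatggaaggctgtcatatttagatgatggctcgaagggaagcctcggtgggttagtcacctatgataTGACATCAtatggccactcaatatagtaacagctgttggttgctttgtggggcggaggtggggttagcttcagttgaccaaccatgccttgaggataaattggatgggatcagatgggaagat
MAFF, chr22:38201744-38201993, plus strand: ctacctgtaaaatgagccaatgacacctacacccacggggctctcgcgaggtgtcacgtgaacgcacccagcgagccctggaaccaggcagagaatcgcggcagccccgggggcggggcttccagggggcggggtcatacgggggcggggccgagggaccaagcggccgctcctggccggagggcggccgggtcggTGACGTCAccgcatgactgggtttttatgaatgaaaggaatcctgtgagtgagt
JUND, chr19:18281623-18281872, minus strand: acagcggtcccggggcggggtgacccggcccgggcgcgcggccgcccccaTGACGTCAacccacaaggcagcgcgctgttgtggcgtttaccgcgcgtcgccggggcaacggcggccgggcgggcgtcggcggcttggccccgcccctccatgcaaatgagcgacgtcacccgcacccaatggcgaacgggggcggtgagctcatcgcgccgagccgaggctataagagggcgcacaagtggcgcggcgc
FOS, chr14:75278578-75278827, plus strand: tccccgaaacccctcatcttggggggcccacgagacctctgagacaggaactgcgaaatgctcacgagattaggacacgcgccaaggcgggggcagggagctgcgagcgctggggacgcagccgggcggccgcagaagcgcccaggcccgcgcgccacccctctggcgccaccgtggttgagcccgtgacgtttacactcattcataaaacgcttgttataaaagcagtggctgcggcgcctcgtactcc
The element lay 67 to 60 bases before the start in JUN, 123 to 116 in ATF3, 54 to 47 in MAFF and 200 to 193 in JUND. FOSB, lower with all 4 treatments, FOSL2, lower with 3, and JUNB, lower with 2, have no match in their windows either.

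Treated cells held less RNA of most of these genes. FOSB, JUN, ATF3 and MAFF were lower with all 4 treatments, FOSL1 and FOSL2 with 3, JUNB with 2, JUND and MAFK with SE alone, and FOS with none. No member was higher with any treatment. ATF3 and MAFF showed the deepest falls, to 32.2% and 34.99% of the untreated level on average over the 4 treatments, and JUN fell to 20.2% with SE. The 10 genes together summed to 152 to 250.5 TPM in the 12 treated libraries and 362 to 403 TPM in the 3 untreated ones, with no overlap. ATF3 and FOSL1 are the largest parts of that sum. ATF3 averaged 119.85 TPM in untreated cells and 38.6 TPM over the 4 treatments, and FOSL1 103.2 and 68.8 TPM. How often sums of other genes separate in this way was not counted.

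A gene was called changed when limma, fitted to log2(TPM + 0.5) over the 14899 genes that reached 1 TPM in 3 or more libraries, gave a Benjamini-Hochberg adjusted p under 0.05 and a fold change over 1.5. All 10 members passed the filter on low values. Against untreated cells, 5 of the 10 were lower with AE, where 5.81% of all tested genes were. With TE 6 of the 10 were lower, beside 5.26% of all tested genes. With SE 9 of the 10 were lower, beside 11% of all tested genes, and with HTyr 6 of the 10, beside 8.45%. In the mean of the 4 treatments 6 of the 10 were lower, beside 7.43%. No member was higher in any of these comparisons by limma, none at an unadjusted p under 0.05 either, while 10.7%, 7.46%, 17%, 7.8% and 10.4% of all tested genes were higher in the same 5 comparisons. The median log2 fold change of the 10 members was -0.64 for AE, -0.83 for TE, -0.94 for SE and -0.69 for HTyr, where that of all tested genes was 0.09, 0.05, 0.09 and -0.04. Calls over all genes were split unevenly by direction, and a median-ratio scaling of the libraries levelled the split. As deposited, 64.9% of the calls with AE and 60.7% of those with SE were higher, and 50.8% and 49.3% after that scaling. The members called lower after it numbered 6 with AE and 9 with SE, beside 7.79% and 13.8% of all tested genes. The 4 treatments share the same 3 untreated libraries, so their comparisons are not independent of each other.

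**Figure D1:**
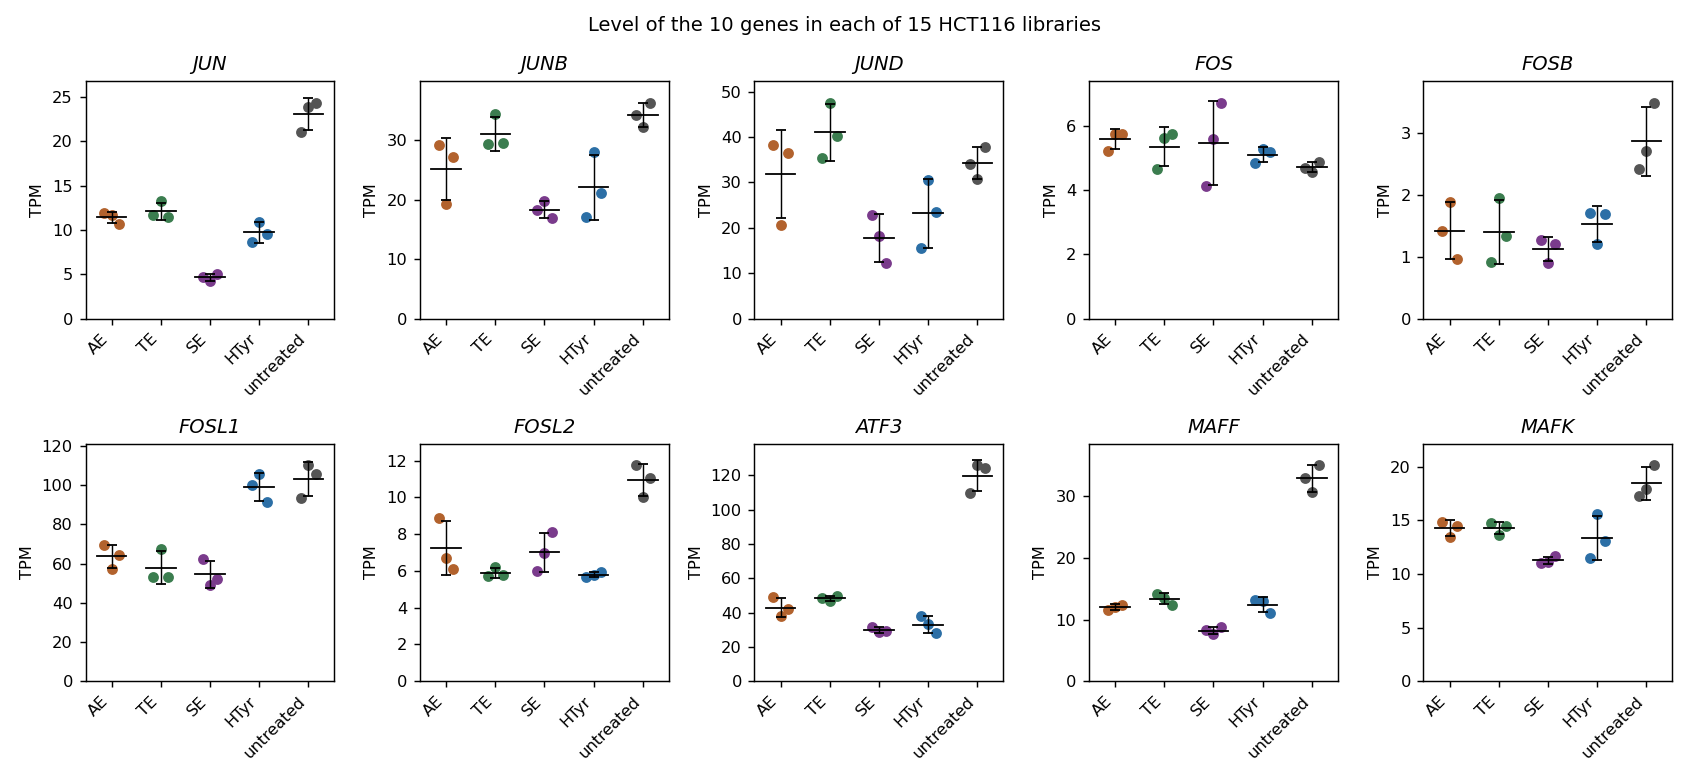
TPM of the 10 genes in each of the 15 libraries by group (points), with the mean and SD of the 3 libraries of each group. All 12 treated libraries lie below the 3 untreated ones for 6 of the genes (FOSB, FOSL2, JUN, ATF3, MAFF and MAFK), and FOS does not separate. The share of all tested genes that separate in this way was not counted, so the 6 have no background beside them.

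**Figure D2:**
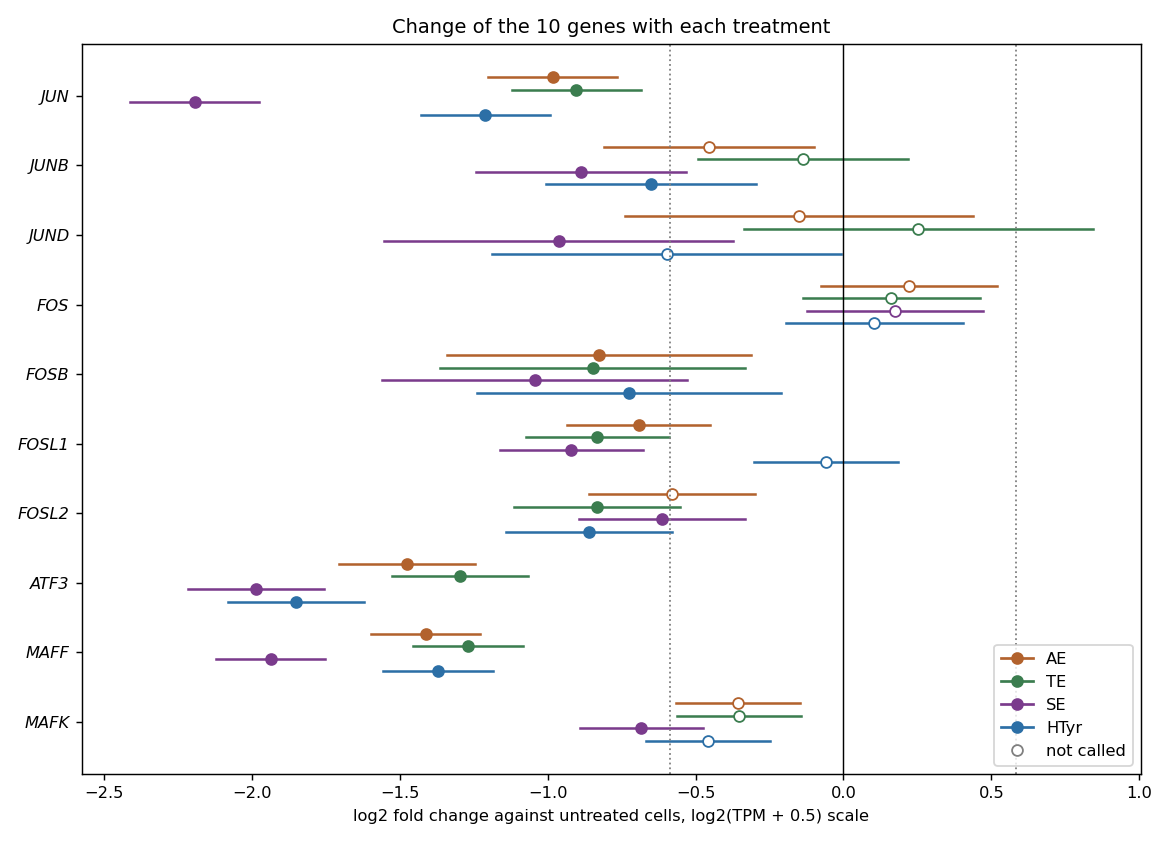
Log2 fold change of each gene with AE, TE, SE and HTyr, each against untreated cells, with 95% confidence intervals from limma. Filled points were called changed, open points were not, and dotted lines mark the fold threshold of 1.5. ATF3 and MAFF lie farthest below 0, JUN is lowest with SE, FOSL1 lies near 0 with HTyr alone, and FOS lies near 0 throughout.

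The JUN proteins are the members that can form AP-1 without a FOS partner. JUN itself, a strong activator and an early response gene to growth factors and stress (ENSG00000177606, chromosome 1, 58776845 to 58784048, minus strand, GRCh38), had 11.9, 11.6 and 10.7 TPM with AE, 11.6, 13.2 and 11.5 TPM with TE, 4.66, 4.25 and 5.06 TPM with SE and 8.62, 10.9 and 9.58 TPM with HTyr, against 21.03, 23.9 and 24.4 TPM in untreated cells. All 12 treated libraries lay below the lowest untreated one, and the 3 SE libraries lay below all others. The log2 fold change was -0.98 for AE, -0.90 for TE, -2.19 for SE and -1.21 for HTyr (standard error of each estimate 0.101; limma, adjusted p = 5.53e-06, 1.82e-05, 1.22e-09 and 1.24e-06). Its promoter window is the one with TGACATCA closest to the start of the 2 that hold it.

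JUNB, which replaces JUN in many AP-1 pairs and activates simple sites more weakly (ENSG00000171223, chromosome 19, 12791486 to 12793315, plus strand), had 29.1, 19.3 and 27.2 TPM with AE, 29.4, 34.4 and 29.5 TPM with TE, 18.2, 19.8 and 16.9 TPM with SE and 17.1, 27.99 and 21.1 TPM with HTyr, against 34.2, 32.2 and 36.4 TPM in untreated cells. With AE, SE and HTyr all libraries lay below the untreated ones, while 1 TE library lay among them. The fall was called with SE, with a log2 fold change of -0.89, and with HTyr, with -0.65 (standard error 0.165; limma, adjusted p = 0.000468 and 0.00675). The estimates were -0.45 with AE, past the p threshold but not the fold threshold, and -0.14 with TE (limma, adjusted p = 0.0421 and 0.555). The call with HTyr was lost without HTyr replicate 1, at -0.48. The gene HOOK2 overlaps JUNB on the opposite strand. The libraries came from a stranded kit, but whether the authors' counting used strand is not stated, so reads of such a pair may not have been told apart.

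JUND, the JUN protein that many resting cells hold (ENSG00000130522, chromosome 19, 18279694 to 18281622, minus strand), had 38.2, 20.6 and 36.5 TPM with AE, 35.3, 47.6 and 40.1 TPM with TE, 22.8, 18.3 and 12.2 TPM with SE and 15.5, 30.6 and 23.4 TPM with HTyr, against 33.97, 30.8 and 37.8 TPM in untreated cells. SE and HTyr libraries lay below every untreated library, AE libraries lay on both sides, and 2 of the 3 TE libraries lay above. Only the fall with SE was called, at a log2 fold change of -0.96 (standard error 0.274; limma, adjusted p = 0.00918). With HTyr it was -0.60 (95% confidence interval -1.19 to -0.01), with AE -0.15 and with TE 0.25 (limma, adjusted p = 0.101, 0.698 and 0.511). Replicates spread widely. Without HTyr replicate 2 the change with HTyr was called, at -0.82 (limma, adjusted p = 0.0432, in a range of 0.0432 to 0.362 over all alternatives), and without AE replicate 2 the estimate with AE was 0.13, of the opposite sign.

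Within groups the libraries ranked alike for JUNB and JUND. The same library was lowest for both genes in each of the 5 groups (AE replicate 2, TE replicate 1, SE replicate 3, HTyr replicate 1 and untreated replicate 2), and the same library was highest in 4 of the 5, all but SE. In AE replicate 2 they lay 0.35 and 0.56 below the group mean on the log2 scale, whereas JUN lay 0.03 above it. In HTyr replicate 1 the 3 genes JUN, JUNB and JUND all lay below their group mean, by 0.16, 0.33 and 0.51. In SE replicate 3 JUND lay 0.48 below its group mean, where JUN lay 0.11 above its own, so JUN did not share this ranking throughout.

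Among the FOS proteins, which need a JUN partner to bind DNA, FOS is the classical early response gene whose RNA peaks shortly after stimulation and then decays (ENSG00000170345, chromosome 14, 75278826 to 75282230, plus strand). It had 5.23, 5.77 and 5.77 TPM with AE, 4.67, 5.65 and 5.77 TPM with TE, 4.13, 5.60 and 6.74 TPM with SE and 4.86, 5.30 and 5.19 TPM with HTyr, against 4.71, 4.58 and 4.88 TPM in untreated cells. Of the 12 treated libraries, 9 lay above every untreated one and 1 lay below, and the groups overlapped except for AE. Its log2 fold changes were 0.22 for AE, 0.16 for TE, 0.17 for SE and 0.10 for HTyr (standard error 0.138; limma, adjusted p = 0.229, 0.401, 0.317 and 0.587), and 0.17 in the mean of the 4, with a 95% confidence interval of -0.07 to 0.40. FOS was thus the only member whose estimate lay above 0 with every treatment, and none of these was called.

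FOSB, an early response gene that encodes a full-length activator and a shorter splice form that lacks its end (ENSG00000125740, chromosome 19, 45467995 to 45475179, plus strand), was the lowest member in TPM. It had 1.41, 1.89 and 0.960 TPM with AE, 0.920, 1.95 and 1.33 TPM with TE, 1.27, 0.900 and 1.21 TPM with SE and 1.71, 1.200 and 1.69 TPM with HTyr, against 2.41, 2.70 and 3.49 TPM in untreated cells. All 12 treated libraries lay below the 3 untreated ones. The log2 fold change, which the pseudocount makes smaller at such levels, was -0.83 for AE, -0.85 for TE, -1.04 for SE and -0.72 for HTyr (standard error 0.239; limma, adjusted p = 0.0141, 0.0143, 0.00226 and 0.0276). Several of these calls rested on single libraries. The call with AE was lost without AE replicate 3 or untreated replicate 3 (adjusted p = 0.0659 and 0.0606), and that with TE without TE replicate 1 or untreated replicate 3 (0.0684 and 0.0610). For HTyr it was lost without HTyr replicate 2, untreated replicate 2 or untreated replicate 3 (limma, adjusted p = 0.102, 0.0536 and 0.105) and without the filter on low values (0.0583). Over all alternatives the adjusted p ran from 0.00828 to 0.0659 with AE, from 0.00703 to 0.0684 with TE, from 0.00122 to 0.0132 with SE and from 0.0209 to 0.105 with HTyr. The DNA repair gene ERCC1 overlaps FOSB on the opposite strand.

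FOSL1 encodes FRA1, the FOS protein that sustained ERK signalling stabilises and that is prominent in invasive carcinoma cells (ENSG00000175592, chromosome 11, 65892049 to 65900573, minus strand). It had 69.3, 57.4 and 64.4 TPM with AE, 53.2, 67.4 and 53.4 TPM with TE, 62.1, 49.3 and 51.9 TPM with SE and 99.9, 106 and 91.4 TPM with HTyr, against 93.7, 110.1 and 106 TPM in untreated cells. With the 3 extracts every library lay below every untreated one, whereas the HTyr libraries overlapped with the untreated ones and each of them lay above all 9 extract libraries. The log2 fold change was -0.69 with AE, -0.83 with TE and -0.92 with SE (standard error 0.112; limma, adjusted p = 0.000267, 8.67e-05 and 1.18e-05). With HTyr it was -0.06 (limma, adjusted p = 0.71), with a 95% confidence interval of -0.30 to 0.18. In the mean of the 4 treatments it was -0.63, and without untreated replicate 2 it was -0.58 and no longer past the fold threshold.

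FOSL2 encodes FRA2, the related protein without the activation domain that FOS carries (ENSG00000075426, chromosome 2, 28392448 to 28417317, plus strand). Its levels were 8.89, 6.70 and 6.09 TPM with AE, 5.70, 6.22 and 5.80 TPM with TE, 5.97, 6.99 and 8.09 TPM with SE and 5.67, 5.78 and 5.94 TPM with HTyr, against 11.7, 10.02 and 11.1 TPM in untreated cells. All 12 treated libraries lay below the untreated ones. Its log2 fold changes were -0.83 with TE, -0.61 with SE and -0.86 with HTyr (standard error 0.130; limma, adjusted p = 0.000274, 0.00132 and 0.000173), and -0.58 with AE, which passed the p threshold (0.00304) and missed the fold threshold. AE replicate 1 was the highest treated library, and without it the change with AE was called, at -0.73, as it was without untreated replicate 2, at -0.64. The call with SE was lost without SE replicate 1 (-0.51) and without untreated replicate 1 (-0.56), so for AE and SE the gene sat at the fold threshold. The long noncoding gene FOSL2-AS1 overlaps FOSL2 on the opposite strand, and a further long noncoding gene with no symbol on the same strand.

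The makeup of each family can be given as the share of each gene in its summed TPM. FOSL1 was the most abundant FOS family RNA in all 12 treated and all 3 untreated libraries, at 81.7% ± 1.71 of the family's summed TPM for AE, 82.0% ± 1.30 for TE, 79.8% ± 4.22 for SE and 88.8% ± 0.984 for HTyr, against 84.7% ± 1.602 in untreated cells (SD, n = 3 each). FOS itself took 7.23% ± 0.964, 7.64% ± 0.941, 8.15% ± 2.25 and 4.602% ± 0.338 with AE, TE, SE and HTyr, against 3.89% ± 0.295 in untreated cells. The family sum was 77.9 ± 6.59, 70.7 ± 9.23, 68.1 ± 5.37 and 111 ± 6.95 TPM in that order, against 121.7 ± 8.03 TPM in untreated cells. FOS thus took a larger part of a smaller sum with the extracts. These shares were computed from the levels given above and were not tested.

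In the JUN family the rarest RNA was JUN in all 12 treated and all 3 untreated libraries. It made up 17.3% ± 4.54 for AE, 14.4% ± 0.719 for TE, 11.7% ± 2.70 for SE and 18.1% ± 2.60 for HTyr, against 25.3% ± 2.02 in untreated cells (SD, n = 3 each). JUND was the most abundant in 9 of the 12 treated libraries and in 1 of the 3 untreated ones. The family summed to 68.4 ± 14.8, 84.2 ± 9.81, 40.7 ± 5.91 and 54.97 ± 14.2 TPM with AE, TE, SE and HTyr, against 91.5 ± 6.17 TPM in untreated cells. The TE and untreated sums thus lay closest together, while JUN had a smaller share with each treatment.

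**Figure D3:**
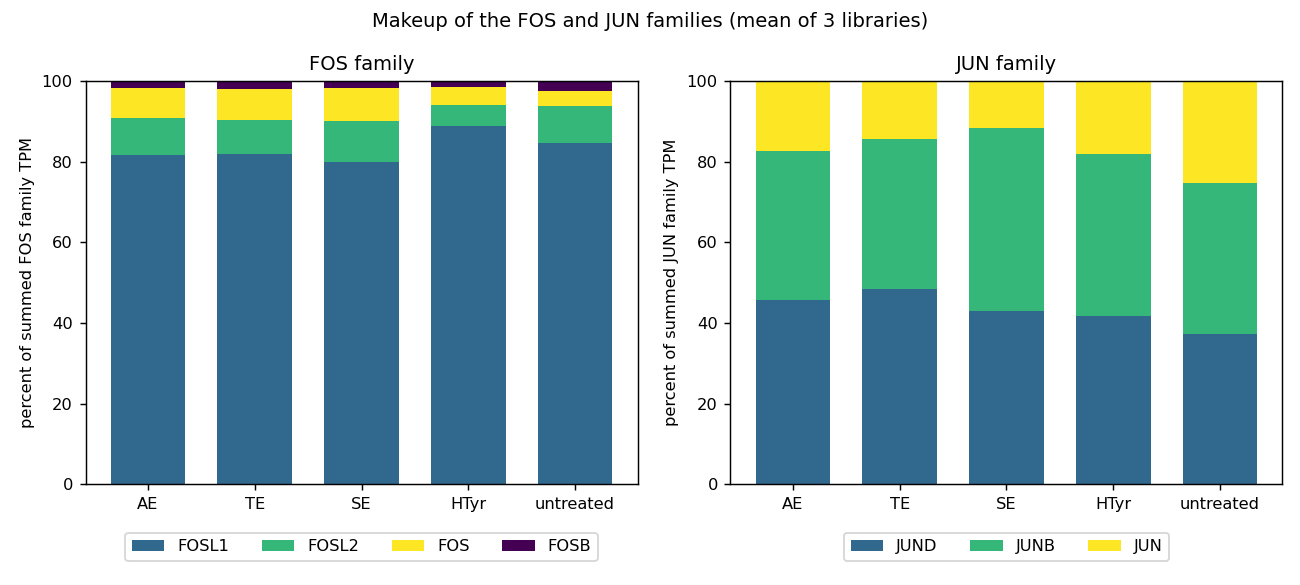
Mean share of each gene in the summed TPM of the FOS family and of the JUN family, by group, as stacked bars in percent. FOSL1 fills most of each FOS family bar, and the JUN part is largest in untreated cells, at 25.3%, and smallest with SE, at 11.7%.

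ATF3 is a stress-induced member of the ATF branch that is switched on by the unfolded protein response, DNA damage and amino acid shortage (ENSG00000162772, chromosome 1, 212565334 to 212620777, plus strand). It had 48.9, 37.8 and 42.2 TPM with AE, 48.4, 46.9 and 49.9 TPM with TE, 31.7, 28.5 and 29.4 TPM with SE and 37.8, 33.2 and 28.1 TPM with HTyr, against 109.5, 126 and 124 TPM in untreated cells. The highest treated library lay below the lowest untreated one, and within the treatments the TE libraries were all above the SE libraries. Its log2 fold changes were -1.47 for AE, -1.30 for TE, -1.99 for SE and -1.85 for HTyr (standard error 0.107; limma, adjusted p = 2.82e-07, 1.57e-06, 4.63e-09 and 6.83e-08). On the untreated scale this was 35.8%, 40.4%, 24.9% and 27.5%.

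MAFF, a small MAF protein whose RNA responds to stress and cytokines (ENSG00000185022, chromosome 22, 38200767 to 38216507, plus strand), had 11.6, 12.1 and 12.4 TPM with AE, 14.2, 13.5 and 12.4 TPM with TE, 8.26, 7.66 and 8.77 TPM with SE and 13.2, 13.1 and 11.1 TPM with HTyr, against 32.95, 30.8 and 35.1 TPM in untreated cells. All 12 treated libraries lay below the untreated ones here too, with the 3 SE libraries below all others. The log2 fold change was -1.41 for AE, -1.27 for TE, -1.94 for SE and -1.37 for HTyr (standard error 0.0859; limma, adjusted p = 7.89e-08, 3.14e-07, 9.68e-10 and 1.24e-07). MAFF overlaps the phospholipase gene PLA2G6 on the opposite strand.

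MAFK, the small MAF protein with a less inducible RNA (ENSG00000198517, chromosome 7, 1530702 to 1543043, plus strand), had 14.8, 13.4 and 14.5 TPM with AE, 14.8, 13.6 and 14.4 TPM with TE, 11.1, 11.1 and 11.6 TPM with SE and 11.5, 15.6 and 13.03 TPM with HTyr, against 17.3, 17.9 and 20.1 TPM in untreated cells. Every treated library lay below every untreated one here as well, but the differences were smaller. On the log2 scale the fold change was -0.68 with SE, which was called, and -0.36 with AE, -0.35 with TE and -0.46 with HTyr, which passed the p threshold and not the fold threshold (standard error 0.0971; limma, adjusted p = 4.73e-05, 0.01, 0.0124 and 0.00211). MAFK overlaps TMEM184A on the opposite strand.

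Among the treatments, SE gave the lowest mean for 8 of the 10 genes and HTyr for the other 2 (FOS and FOSL2). The highest mean was that of TE for 6 genes (JUN, JUNB, JUND, ATF3, MAFF and MAFK), of AE for FOS and FOSL2, and of HTyr for FOSB and FOSL1. In 6 pairwise comparisons of treatments, 10 of the 60 differences were called, in 6 genes (FOSL1, JUN, JUNB, JUND, ATF3 and MAFF), with p-values adjusted over all genes tested in each pair. The share of all tested genes called lower ran from 0.0336% for AE against TE to 3.66% for SE against TE. The pooled count thus has no single background, and each pair is given below. For FOS, FOSB, FOSL2 and MAFK no pair was called.

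Between each extract and HTyr, the gene that differed each time was FOSL1. SE against HTyr gave a log2 difference of -0.86 in FOSL1 (limma, adjusted p = 0.000101) and -0.98 in JUN (standard error 0.101, adjusted p = 1.53e-05). These 2 of the 10 members were lower, beside 2.38% of all tested genes. MAFF differed by -0.57 (limma, adjusted p = 0.000311), just inside the fold threshold, and was called without SE replicate 3 (-0.61) or HTyr replicate 3 (-0.65). TE against HTyr gave -0.77 in FOSL1 (limma, adjusted p = 0.00318), 1 of the 10 members, beside 0.262% of all tested genes that were lower. ATF3 was 0.56 higher with TE than with HTyr (limma, adjusted p = 0.0172), short of the fold threshold. Without HTyr replicate 1 that difference was 0.66 and was called, and without HTyr replicate 2 JUNB was called at 0.69. AE against HTyr gave -0.63 in FOSL1 (standard error 0.112, limma, adjusted p = 0.00755), again 1 of the 10, beside 0.443% of all tested genes. Without AE replicate 2 it was -0.56 and not called, so that 0 members were left. With only the groups compared in the fit, FOSL1 missed the p threshold against HTyr for AE and for TE (adjusted p = 0.0616 and 0.0550). Over all their alternatives these adjusted p ran from 0.00412 to 0.0616 and from 0.00153 to 0.0550. The median of all genes lay 0.12 above 0 for AE against HTyr and 0.13 above 0 for SE against HTyr in these TPM, and after median-ratio scaling, which removes that shift, FOSL1 differed by -0.76 with AE and -0.998 with SE, JUN by -1.11 with SE and MAFF, then called, by -0.70 with SE.

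The extracts did not differ detectably from each other in FOSL1. The log2 difference was -0.23 for SE against AE (95% confidence interval -0.47 to 0.02), -0.09 for SE against TE (-0.33 to 0.15) and 0.14 for AE against TE (-0.10 to 0.38). A difference of the size of that from HTyr lies outside each of these 3 intervals. Such intervals do not show that the extracts act alike.

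SE against TE was the pair with the most called members, 5 of the 10, all lower with SE, beside 3.66% of all tested genes that were lower. The log2 difference was -1.29 in JUN, -0.75 in JUNB, -1.22 in JUND, -0.69 in ATF3 and -0.67 in MAFF (limma, adjusted p = 1.07e-06, 0.00418, 0.00477, 0.000339 and 7.28e-05). The SE libraries lay below the TE libraries in all 5 genes, without overlap. As the 5 were picked by the call in this same pair, that is no separate support. Against AE, SE was lower in JUN, by a log2 difference of -1.21 (limma, adjusted p = 2.98e-06), 1 of the 10 members, beside 2.78% of all tested genes. Differences of -0.51 in ATF3 and -0.52 in MAFF passed the p threshold there (limma, adjusted p = 0.00466 and 0.000856) but not the fold threshold, and JUND, at -0.81, missed the p threshold (0.0569; 95% confidence interval -1.40 to -0.22). Without AE replicate 2, 4 members were called for SE against AE, with JUNB at -0.61, JUND at -1.09 and ATF3 at -0.60 beside JUN. Without SE replicate 1, HTyr replicate 1 or HTyr replicate 2, JUND was called beside JUN, at -1.01, -0.81 and -0.81. AE against TE gave no called member, 0 at an unadjusted p under 0.05 as well (limma), and 0.0873% of all tested genes were called in that pair.

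**Figure D4:**
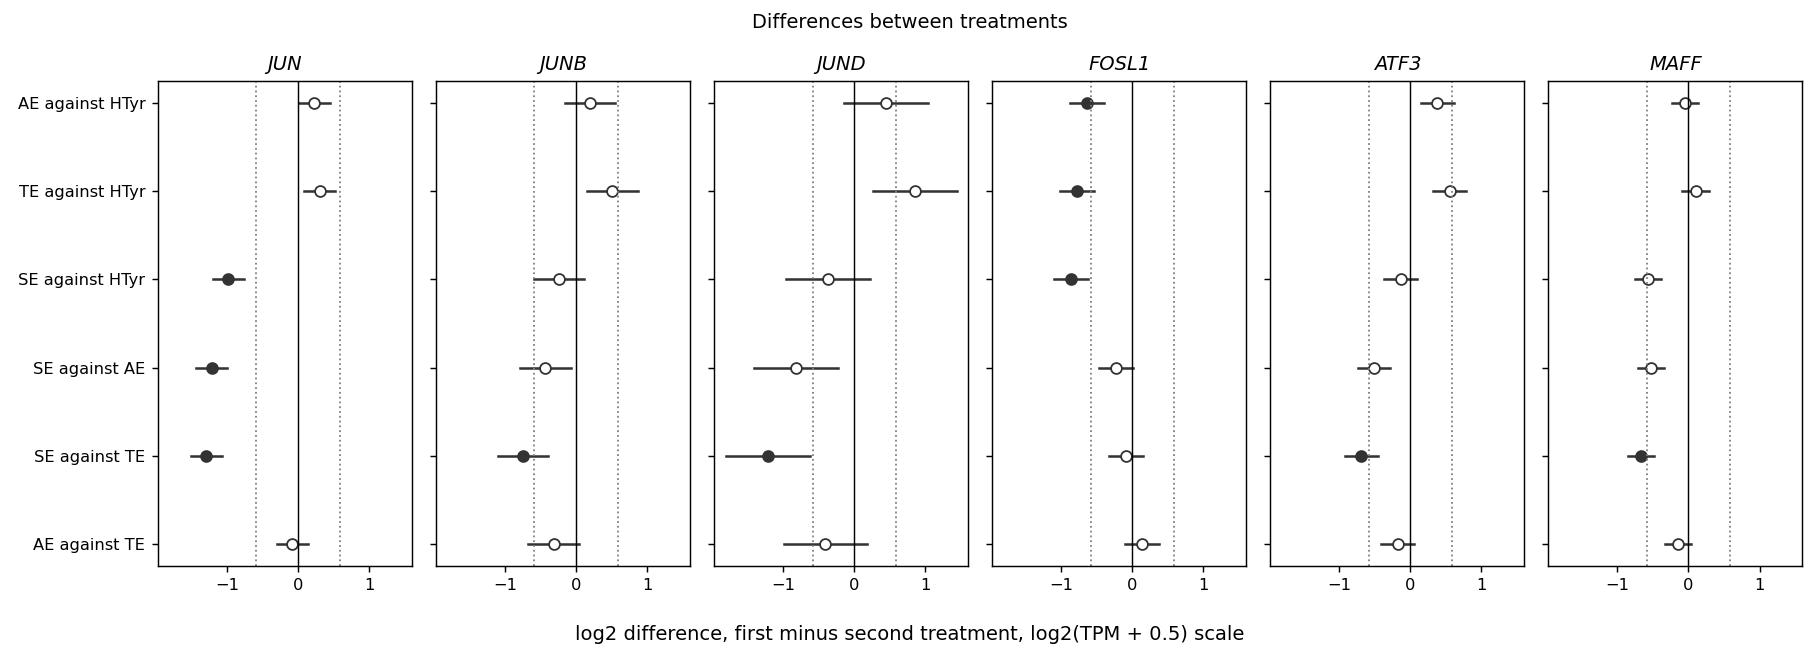
Log2 differences between treatments with 95% confidence intervals from limma for the 6 genes called in at least 1 pair, with the first-named treatment minus the second, filled where called. FOSL1 is low in the 3 pairs of an extract with HTyr, and JUN in the 3 pairs that set SE against another treatment.

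The other listed bZIP genes were largely lower or not called. Of 15 listed genes, other ATF, BATF and CREB genes together with DDIT3 and JDP2, 14 were tested. In the mean of the 4 treatments 6 were lower and 0 higher, beside 7.43% and 10.4% of all tested genes. Their median log2 fold change was -0.41, beside 0.05 over all tested genes. DDIT3, which encodes the stress factor CHOP, had 168 ± 18.5, 181 ± 15.9, 41.2 ± 5.05 and 168 ± 12.8 TPM with AE, TE, SE and HTyr, against 478 ± 46.6 TPM in untreated cells (SD, n = 3 each; log2 fold change in the mean -1.99, limma, adjusted p = 1.32e-09). JDP2, a repressor that pairs with JUN proteins, fell by 0.69 on the log2 scale in the mean (limma, adjusted p = 6.20e-06). ATF6, a sensor of the unfolded protein response, had a log2 fold change of -0.55, short of the fold threshold, and -0.60 under median-ratio scaling. With HTyr 7 of the 14 were lower, with SE 5, and with AE and with TE 3 each. Of all tested genes, 8.45%, 11%, 5.81% and 5.26% were lower in that order.

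Of 9 other MAF, CNC and BACH genes, the partners and competitors of the small MAF proteins, 7 were tested. In the mean of the 4 treatments 1 was lower and 1 higher (median -0.28), beside 7.43% and 10.4% of all tested genes. With 7 genes such counts say little about the list. BACH2, a repressor that pairs with small MAF proteins, averaged 0.870, 0.887, 0.617 and 0.897 TPM with AE, TE, SE and HTyr, against 1.72 TPM in untreated cells, with -0.76 as the log2 fold change in the mean (limma, adjusted p = 0.000694). NFE2, a blood lineage CNC factor, averaged 1.153, 1.31, 1.33 and 0.860 TPM, against 0.420 TPM in untreated cells, with 0.84 (limma, adjusted p = 0.00169). The third small MAF gene MAFG had a log2 fold change of 0.23, past the p threshold (0.00138) and short of the fold threshold. The small MAF genes thus did not share one direction: MAFF was lower with each treatment, MAFK with SE, and MAFG with none.

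Upstream of AP-1, 22 of 23 listed kinases and factors were tested. In the mean 4 were lower and 0 higher (median -0.13), beside 7.43% and 10.4% of all tested genes. SRF, the serum response factor that switches on FOS and other early genes, averaged 14.6, 15.5, 14.99 and 14.6 TPM with AE, TE, SE and HTyr, against 28.9 TPM in untreated cells (log2 fold change -0.93, limma, adjusted p = 3.89e-09). ELK3, an ETS partner of SRF, and MEF2D, a factor that acts on the JUN promoter, fell by 0.80 and 0.92 on the log2 scale (limma, adjusted p = 1.86e-08 and 2.45e-08). FOS, which SRF is known to drive, was not called with any treatment, with log2 fold changes of 0.10 to 0.22. Whether SRF bears on the level of FOS here was not tested. RNA levels do not report the activity of kinases, which was not measured here.

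Of 17 other immediate early genes, 15 were tested. In the mean of the 4 treatments 6 were lower and 1 higher (median -0.31), beside 7.43% and 10.4% of all tested genes. CCN1, a matricellular protein gene, had 10.1 ± 0.978, 10.05 ± 1.34, 8.27 ± 0.367 and 10.4 ± 1.004 TPM with AE, TE, SE and HTyr, against 62.8 ± 2.09 TPM in untreated cells (log2 fold change -2.64, limma, adjusted p = 5.37e-11). ZFP36, which promotes decay of unstable RNA, and DUSP1, a phosphatase that switches off MAP kinases, had -1.34 and -1.37 (limma, adjusted p = 1.15e-08 and 1.58e-08). KLF10, a factor induced by TGF-beta, went the other way with 0.86 (limma, adjusted p = 2.04e-08).

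Of 26 genes reported elsewhere as AP-1 targets, 20 were tested. In the mean 9 were lower and 0 higher (median -0.48), beside 7.43% and 10.4% of all tested genes. By treatment, 10 were lower and 1 higher with AE, 8 and 0 with TE, 12 and 2 with SE, and 6 and 1 with HTyr. Of all tested genes, 5.81% were lower and 10.7% higher with AE, and 5.26% and 7.46% with TE. The shares were 11% and 17% with SE, and 8.45% and 7.8% with HTyr. EZR, which links the membrane to actin, averaged 883, 893, 622 and 909.98 TPM with AE, TE, SE and HTyr, against 1662 TPM in untreated cells (log2 fold change -1.02, limma, adjusted p = 1.04e-10). The receptor tyrosine kinase gene AXL had -1.39 (limma, adjusted p = 1.97e-10). These lists were compiled from general knowledge, binding was not measured, and a lower target does not show less AP-1 activity.

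The 12 stress genes downstream of ATF4 and ATF3, of which 11 were tested, did not move as a block. DDIT3 was counted in the list with the ATF genes and not here. With SE 7 of the 11 were lower and 0 higher, with AE 2 were lower and 4 higher, with TE 2 and 3, with HTyr 2 and 1. The shares of all tested genes for each treatment are those given for the AP-1 targets. In the mean 3 were lower and 0 higher (median -0.25), beside 7.43% and 10.4% of all tested genes. PPP1R15A, the phosphatase subunit that ends the translation block of the stress response, had 69.6 ± 4.32, 67.9 ± 0.925, 24.5 ± 2.64 and 64.6 ± 4.35 TPM with AE, TE, SE and HTyr, against 129 ± 13.2 TPM in untreated cells (log2 fold change in the mean -1.29, limma, adjusted p = 7.90e-09). GDF15, a secreted stress cytokine, had -0.996 on that scale (limma, adjusted p = 4.34e-08), and PSAT1, an enzyme of serine synthesis, 0.53, short of the fold threshold. Of the 7 epithelial markers, 2 were lower in the mean, beside 7.43% of all tested genes. These were KRT19 and KRT18, with -0.88 and -0.79 (limma, adjusted p = 7.73e-09 and 1.51e-08). The other 5 were not called, with -0.58 in KRT8, -0.38 in CDH1, -0.27 in CLDN7, -0.06 in EPCAM and 0.12 in ESRP1. Between treatments they varied: CLDN7 had -0.82 with SE, where it was called (limma, adjusted p = 3.07e-08), and values of -0.07, 0.004 and -0.18 with AE, TE and HTyr, where it was not. Of the 5 tested markers of other cell types, CD68 had -2.03 and TUBB3 0.94 (limma, adjusted p = 7.52e-08 and 1.73e-08). DES, at 0.36, COL1A1 and ACTA2 were not called.

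**Figure D5:**
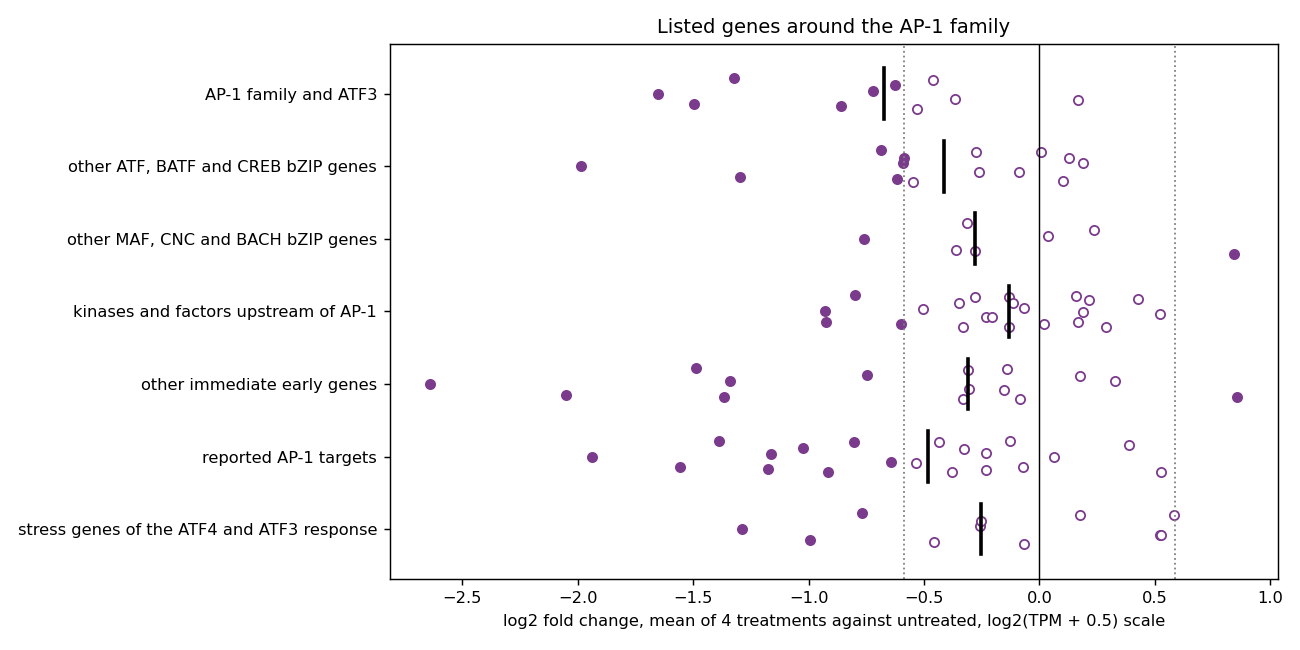
Log2 fold change in the mean of the 4 treatments against untreated cells for each tested gene of the lists around AP-1, one point per gene, with the median of each list. The 10 members have a median of -0.67, beside 0.05 for all 14899 tested genes, and the other lists lie between -0.48 and -0.13.

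The genes most like ATF3 and MAFF across the 12 treated libraries were sought by the root mean square difference of their log2 differences from the untreated mean, among all tested genes outside the 10. For ATF3 these were HSPA5, the chaperone BiP of the endoplasmic reticulum, at 0.189, AMOTL2, a junction protein, at 0.204 and IRS2, an insulin receptor substrate, at 0.231. HSPA5 averaged 667, 802, 405 and 543 TPM with AE, TE, SE and HTyr, against 1746 TPM in untreated cells. For MAFF they were the long noncoding RNA LINC02019 at 0.131, GEM, a small GTPase, at 0.162 and IRS2 at 0.168. A smaller value means a closer pattern in these 12 libraries, which share their untreated mean.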

How the data were processed

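RNA of 15 libraries of HCT116 cells, 3 in each of 5 groups, was captured by poly(A) and sequenced with a stranded kit. The authors clipped and trimmed reads with Scythe and Sickle, aligned them to GRCh38 with STAR, quantified Ensembl 104 genes with RSEM and deposited TPM for each library, rounded to 2 decimals. STAR, RSEM and GRCh38 also stand in the submitters' processing notes, with versions not given in the sources used here. TPM keep no depth, so count models could not be fitted. The authors' own tests used estimated counts, which were not used here.

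Groups were taken from the sample labels. For the TE and SE libraries a code inside the titles is the name of a deposited column of the other region. Their groups were taken from the rest of the title and the description, and the deposited columns were matched to them through the study's supplementary table. Its column for each library held the same values within rounding for all 1539 genes compared. All results for TE and SE rest on this assignment.

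The 10 members were matched by symbol through GENCODE 44, which names 60463 of 60664 genes. Members, gene lists and tests were chosen with earlier results of these data known. The 14899 genes that reached 1 TPM in 3 or more libraries were fitted as log2(TPM + 0.5) with limma 3.58.1 in R 4.3.3 (5 group means, mean-variance trend, 10 residual and 3.42 prior degrees of freedom), which left out 45765 genes. A gene was called at a Benjamini-Hochberg adjusted p under 0.05, over all tested genes, together with a log2 fold change beyond 0.585 in size. Besides the 10 members, the text names from each list the 3 genes of smallest adjusted p in the averaged treatments plus at most 2 called genes against the direction of the list, and the 3 genes nearest in pattern to each of the 2 members with the largest change. A gene that this rule takes in is not reported here. Promoter windows came from RefSeq on GRCh38.p14. Alternatives were pseudocounts of 0.1 and 1, scaling by median ratios or by quantiles, no filter, a filter at a mean of 5 TPM, fits without the mitochondrially encoded genes, without the trend or with only the groups compared, a replicate block, and the loss of each library in turn. Tables were made with Python 3.11.15, numpy 2.4.6 and pandas 2.3.3, and figures with matplotlib 3.10.9.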

Additional observations from a re-analysis of the deposited data

How the results depend on the processing

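The members called lower against untreated cells numbered 4 to 6 with AE, 5 to 6 with TE, 8 to 9 with SE, 5 to 6 with HTyr and 5 to 7 in the mean over all alternatives, and JUN, ATF3 and MAFF were called with each treatment in every one of them. With a mean of at least 5 TPM, FOSB was not tested and 2 members were called for SE against AE in place of 1 (JUND at -0.81, limma, adjusted p = 0.0422), and none of the other MAF, CNC and BACH genes was tested and called (0 in place of 2). With only the groups compared, 0 members were called in place of 1 for AE against HTyr and for TE against HTyr, in a fit with fewer samples. That fit gives no separate value for the mean of the 4 treatments.

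Leaving out 1 library at a time gave 1 to 4 called members for SE against AE, 0 to 1 for AE against HTyr and 1 to 2 for TE against HTyr. The estimate of JUND for AE against untreated cells ran from -0.31 to 0.13, with the sign turned without AE replicate 2. FOSL2 with AE was called with a pseudocount of 0.1 (-0.61), median-ratio scaling (-0.67) and quantile normalization (-0.66), and with SE was not with a pseudocount of 1 (-0.58). JUNB, ATF6 and KRT8 in the mean were called under median-ratio scaling (-0.59, -0.60 and -0.63). MAFF for SE against HTyr was called with a pseudocount of 0.1 (-0.59) and quantile normalization (-0.69). For these changes of call the cause was not tested.

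Counts over all genes moved by over 1.5 times in few settings. AE against HTyr gave 200 calls and 126 with a mean of at least 5 TPM, 117 under median-ratio scaling, 106 under quantile normalization and 25 with only the groups compared. TE against HTyr gave 105 and 63 without the filter and 27 with only the groups compared, AE against TE 13, 7 and 1, and the mean of the 4 treatments 2661 and 1768 with a mean of at least 5 TPM. Without 1 library these ran from 75 to 244 for AE against HTyr, 54 to 107 for TE against HTyr and 4 to 15 for AE against TE. Median-ratio scaling moved the share of calls that were higher to 29.1% in place of 67% for AE against HTyr, 35.6% in place of 62.9% for TE against HTyr, 36.5% in place of 67.6% for SE against HTyr, 43.3% in place of 56.2% for SE against TE and 41.7% in place of 61.5% for AE against TE.

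The labels give the groups the same replicate numbers, but same-numbered libraries did not deviate together: over 30 pairs the correlation ran from -0.209 to 0.263 (median 0.00288), with 3 pairs over 0.1, and 4 of 15 libraries correlated best with their own number. With the replicate number as a block the members called were 5 with AE, 6 with TE, 9 with SE, 6 with HTyr and 6 in the mean, and 1, 1, 2, 1, 5 and 0 for AE against HTyr, TE against HTyr, SE against HTyr, SE against AE, SE against TE and AE against TE, as without it. Values are rounded to 2 decimals, and the depth of each library is unknown, which limits the precision of low genes such as FOSB, at 0.900 to 1.95 TPM in treated cells.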
